A study of Mus musculus with 8 samples.

Results

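The nuclear receptor family was followed on 8 one-color mouse expression arrays, with 1 array per group. Its 47 members, the retinoid receptors among them, were taken from a list of mouse gene symbols. The list used no measured value, but it was chosen with earlier results of these data known. All 47 members had at least 1 named probe among the 20062 genes that had one. The members were covered by 67 probes, and 18 members had more than 1 probe. The groups were CD45- Ter119- p75NTR+ cells of the liver from 4 fetal stages (E11.5, then E13.5 and E14.5, then E17.5) and from postnatal day 1 (P1), adult HSC (hepatic stellate cells sorted by their vitamin A), MEF (fibroblasts from embryonic skin, grown in culture) and MSC (mesenchymal stem cells purified from adult bone marrow). p75NTR is the neurotrophin receptor encoded by Ngfr, and CD45 and Ter119 are surface proteins of leukocytes and erythroid cells. No genotype, treatment or strain was labelled for any group. The labels do not say whether animals were pooled, how MSC were purified or whether MSC were cultured. The MEF array came from cultured cells and the 6 liver-derived arrays from sorted cells, so tissue and culture cannot be told apart between them, and the sorts of adult HSC and of the younger liver cells differ.

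Nuclear receptors are transcription factors with a zinc-finger DNA-binding domain and a ligand-binding domain. Many are switched by small lipophilic molecules: steroids, thyroid hormone, retinoic acid, vitamin D, oxysterols, bile acids and fatty acids. Others are orphans that act without a known ligand or are set by how much of them is made. Many members of the family bind DNA as partners of the retinoid X receptors, at repeats of the half-site AGGTCA. In the liver, hepatocytes use several of them to run bile acid, lipid and drug metabolism. Stellate cells store vitamin A, the precursor of the ligand of the retinoic acid receptors.

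Promoters are shown for 3 members whose levels set the main comparisons apart: the retinoic acid receptor Rarb and the bile acid receptor Nr1h4, which were higher on the liver-derived arrays, and the immediate early receptor Nr4a1, which was higher at each later stage. Each runs 5′ to 3′ on the gene's own strand from 250 bases before to 50 bases after the start of transcription in RefSeq annotation of GRCm38.p6, and matches are in capitals. The entries are Rarb at chr14:16575427-16575726 on the minus strand, Nr4a1 at chr15:101266596-101266895 on the plus strand and Nr1h4 at chr10:89506609-89506908 on the minus strand. In Rarb the capitals mark GTTCA, any 6 bases and GTTCA again, a direct repeat of the kind bound by retinoic acid receptors and retinoid X receptors, with its first base 52 bases before the start. In Nr4a1 they mark TGCGTCA, a letter string close to the sites of AP-1 and CREB proteins, which begins 235, 215, 71 and 42 bases before the start. In Nr1h4 they mark 1 half-site, read as TGACCT on this strand, 214 bases before the start.
Rarb: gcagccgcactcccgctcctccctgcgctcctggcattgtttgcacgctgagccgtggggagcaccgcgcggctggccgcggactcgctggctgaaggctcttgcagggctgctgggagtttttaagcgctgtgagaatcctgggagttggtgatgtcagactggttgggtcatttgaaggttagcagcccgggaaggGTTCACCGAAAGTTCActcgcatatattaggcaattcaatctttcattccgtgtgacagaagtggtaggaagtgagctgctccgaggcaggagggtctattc
Nr4a1: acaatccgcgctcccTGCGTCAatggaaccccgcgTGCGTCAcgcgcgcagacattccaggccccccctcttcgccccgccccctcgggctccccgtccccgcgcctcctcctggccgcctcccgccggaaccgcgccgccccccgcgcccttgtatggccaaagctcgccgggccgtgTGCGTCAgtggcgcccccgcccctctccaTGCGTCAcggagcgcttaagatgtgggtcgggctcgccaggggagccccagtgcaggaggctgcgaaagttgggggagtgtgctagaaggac
Nr1h4: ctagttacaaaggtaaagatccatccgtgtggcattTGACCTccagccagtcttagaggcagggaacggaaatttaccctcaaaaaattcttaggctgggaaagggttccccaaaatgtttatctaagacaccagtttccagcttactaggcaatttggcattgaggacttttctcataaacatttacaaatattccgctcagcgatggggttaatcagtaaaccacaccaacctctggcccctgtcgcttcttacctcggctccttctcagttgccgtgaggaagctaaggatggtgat

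Each motif was searched on both strands of the 32851 promoters of the same length. The Rarb repeat was found in 25 of them, 0.0761%, and Rarb was the only member among them. TGCGTCA was found in 2.12% of promoters, and Nr4a1 was the only promoter of all that held 4 or more copies. The Rarb repeat and TGCGTCA were each set for the gene they are shown in, and 4 is the count in Nr4a1 itself. The standing of Rarb and Nr4a1 among the promoters follows in part from that choice and tests nothing. AGGTCA was found in 5340 of the 32851 promoters (16.3%) and in 12 of the 64 promoters of members. These 12 belong to 11 genes: Nr0b1, Nr1d2, Nr1h4, Nr5a2, Nr6a1, Pparg, Rara, Rarg, Rxra, Rxrg and Thrb. Promoter entries were matched for 43 of the 47 members (64 promoters). A match describes letters and does not show that a factor binds there.

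All levels below are log2 signals relative to each array's 75th percentile, so a difference of 1 is a 2-fold difference. Levels of different genes were read by different probes and are not set against each other. Each array held 43020 spots that were not controls, of which 58.8% to 64.5% were above background and none was saturated. With 1 array per group there are no replicates: repeat spots of 399 probes gave a median within-array SD between 0.058 and 0.086 on the log2 scale, which covers spot noise only. Marker genes were set against the labels. Ngfr lay between 3.24 and 6.42 on the 6 liver-derived arrays and at 1.40 and -5.73 on the MEF and MSC arrays. Lrat, the enzyme that esterifies vitamin A for storage, was at 5.12 in adult HSC and between -4.68 and 2.16 on the p75NTR arrays. Of 12 hepatic stellate markers, 11 or 12 were above background on each liver-derived array, against 8 on the MEF array and 5 on the MSC array. Ptprc, which encodes CD45, was below background on all 6 liver-derived arrays, against -4.37 in MEF and -6.29 in MSC, both above background. Of 9 leukocyte and Kupffer markers, 2 to 7 were above background on the liver-derived arrays, against 8 in MEF (Csf1r at 3.18) and 5 in MSC. Hepatocyte transcripts were present in the p75NTR sort: Alb (albumin) was at -2.03, 5.55, 7.19, 4.18 and 2.78 from E11.5 to P1. The adult globin gene Hba-a1 lay between 2.51 and 6.92 on the same arrays, although the sort was Ter119-negative. No marker list for fibroblasts or for bone marrow stem cells was used, so these 2 labels were not checked. The 4 fetal arrays shared 1 slide and scan, and the other 4 arrays shared the second. The slope of the spike-in controls was 0.849 at E11.5 and 0.922 to 0.933 on the other 7 arrays.

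Of the 47 members, 25 were above background on all 8 arrays (53.2%, against 56.7% of all 20062 genes), 19 on 1 to 7 arrays and 3 on none (6.38%, against 17.9% of all genes). The 3 were Hnf4g, Nr2e3 and Nr0b2, and their levels were at most -5.78 on any array. The range over the 8 arrays went from 0.51 for Rxrb to 12.85 for Nr1h5 on the log2 scale. Among the 44 members above background somewhere, adult HSC was the highest array for 18 (40.9%, against 21% of all 16480 genes above background on at least 1 array). In bulk samples, fewer cells of a type and less RNA per cell cannot be told apart.

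The first comparison asked which receptors differed between the 6 liver-derived arrays and the pair from MEF and MSC. The bile acid receptor Nr1h4, its relative Nr1h5 and the retinoic acid receptor Rarb had higher levels on the liver side, and Pparg and Pgr were lower, at a limma adjusted p under 0.05. These are 3 of 44 tested members higher (6.82%, against 0.839% of 16442 genes tested) and 2 lower (4.55%, against 0.736% of all genes). Nr1h5 was below background in both MEF and MSC, Nr1h4 in MSC, and the Pgr probe taken on all 6 liver-derived arrays. The differences of Nr1h5, Nr1h4 and Pgr therefore rest in part on levels below background. Among genes above background on every array compared, only Rarb and Pparg passed (limma adjusted p = 0.021 and 0.023). Nr1h5, Nr1h4 and Pgr were not in that fit. The test is limma's moderated linear model over all genes. Its spread comes from arrays of different stages and cell types, and their small number limits the precision. The median difference over the members was 0.73, against 0.01 over all genes tested. The leukocyte markers in MEF stand beside these differences, and their part in them was not tested.

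Nr1h5 and Nr1h4 stood widest apart. Nr1h5 encodes FXR-beta, a sterol-binding relative of the bile acid receptor that is a working gene in mice and a pseudogene in humans. Its log2 levels were 4.28, 4.02, 4.26, 4.20 and 2.36 from E11.5 to P1 and 4.31 in adult HSC, against -8.30 in MEF and -8.54 in MSC, both below background. All 6 liver-derived arrays were high, with P1 the lowest of them. The fitted difference was 12.33 ± 0.54 (SE; limma adjusted p = 0.000184). Taken against the lowest level above background on the MEF and MSC arrays, Nr1h5 was at least 1312-fold higher.

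Nr1h4 encodes FXR, the bile acid receptor that limits bile acid synthesis in hepatocytes. Its log2 levels were 0.26, 2.65, 3.75, 3.87 and 2.93 from E11.5 to P1 and 5.57 in adult HSC, against -5.76 in MEF and -6.92 in MSC, the last below background. Every liver-derived array was above both others, and the lowest of them was E11.5. The fitted difference was 9.52 ± 1.19 (SE; limma adjusted p = 0.0138), and no fold is given because only 1 of the MEF and MSC arrays was above background. The limma adjusted p was 0.0667 without the MSC array (difference 8.93) and 0.0659 with normexp correction, a model of the spot background used in place of the scanner's own subtraction (difference 5.70).

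The LXR oxysterol receptors, which raise cholesterol efflux, did not pass the test. Nr1h2 (LXR-beta) lay between 2.43 and 4.19 on the liver-derived arrays, against 2.96 in MEF and 3.19 in MSC, so the groups overlapped. Nr1h3 (LXR-alpha) was at -3.77, -1.79, 0.49, -2.36 and -1.46 from E11.5 to P1 and 0.58 in adult HSC, against -1.71 in MEF and -3.57 in MSC. It was high at E14.5 and in adult HSC, and both sides overlapped. Of 11 LXR target genes, 10 were tested and none passed. Of 12 bile acid and xenobiotic response genes, 7 were tested and none passed. Cyp7a1, the rate-limiting enzyme of bile acid synthesis, was below background on all 8 arrays, and so was Nr0b2 (SHP), the corepressor that FXR induces in hepatocytes. Abcb11, the bile salt export pump, was at 0.84 in adult HSC and -0.54 at E14.5, against levels below background in MEF and MSC.

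Rarb, one of the 3 retinoic acid receptors and itself a retinoic acid target, was higher on the liver-derived arrays. Its log2 levels were 3.52, 3.95, 3.71, 2.96 and 1.38 from E11.5 to P1 and 3.01 in adult HSC, against -1.26 in MEF and -2.85 in MSC. The sides did not overlap, and P1 was the lowest of the liver-derived arrays. The difference was 5.15 ± 0.72 (SE; limma adjusted p = 0.0196), which is 35.4-fold, and the second Rarb probe gave 5.31. The limma adjusted p was 0.0824 with the slide as a block, and between 0.051 and 0.093 without the E13.5, E14.5, E17.5 or MSC array in turn.

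The other 2 retinoic acid receptors did not pass. Rara, which is expressed broadly, lay between 3.04 and 4.16 on the liver-derived arrays, against 3.12 in MEF and 2.62 in MSC. Rarg was at 1.30, 1.72, 1.55, 2.43 and 2.46 from E11.5 to P1 and 3.47 in adult HSC, against 3.06 in MEF and 3.87 in MSC. Its highest array was MSC, and adult HSC lay between MEF and MSC. Of 17 retinoic acid response and clearance genes, 14 were tested and none passed. Their median difference was 1.58 and Lrat had 7.79. Of the retinoic acid hydroxylases, Cyp26a1 was below background on all 8 arrays. Cyp26b1 was above background on all 8, between -1.36 and 0.94 on the liver-derived arrays, against 2.10 in MEF and -0.53 in MSC.

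Among the retinoid X receptors, the shared partners, Rxra differed most. Its log2 levels were -1.72, -1.55, -0.54, -0.12 and -1.23 from E11.5 to P1 and 1.66 in adult HSC, against -3.71 in MEF and -3.40 in MSC. The sides did not overlap, but the difference of 2.97 ± 0.85 (SE) did not pass (limma adjusted p = 0.139). It passed without the adult HSC array (2.52, limma adjusted p = 0.046), and the second Rxra probe gave 0.51. Rxrb was the steadiest member, between 3.35 and 3.86 on all 8 arrays. The 2 Rxrg probes disagreed: the probe taken lay between -1.14 and 0.19 on all arrays, and the other ranged from 0.68 at E11.5 to -5.11 in adult HSC, with -8.87 in MSC.

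Pparg, the fatty-acid receptor that drives fat cell formation and is known in quiescent stellate cells, was lower on the liver-derived arrays. Its log2 levels were -3.09, -4.38, -3.82, -3.63 and -3.00 from E11.5 to P1 and -4.11 in adult HSC, against -0.90 in MEF and 0.64 in MSC. Pparg was above background on all 8 arrays, and every liver-derived array, adult HSC included, was below both others. The difference was -3.54 ± 0.52 (SE; limma adjusted p = 0.0235), 11.7-fold lower. The limma adjusted p was 0.101 with the slide as a block, and between 0.0543 and 0.0934 without the E13.5, E14.5, E17.5 or MSC array in turn. With normexp correction the difference was -1.62 (limma adjusted p = 0.415). Ppard, expressed in most tissues, lay between 1.37 and 3.19 on the liver-derived arrays, against 1.74 in MEF and 1.56 in MSC. Ppara, the fatty-acid oxidation receptor, lay between -1.52 and -0.32 on the liver-derived arrays, against -1.64 in MEF and -1.92 in MSC, with no overlap and a limma adjusted p of 0.292. Its 2 other probes gave wider differences, 3.03 and 2.93, but on both of them E11.5 lay below MEF, so the sides overlapped. Of 16 PPAR target genes, 15 were tested and none passed, with a median difference of -0.12.

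The progesterone receptor Pgr was the other member that passed as lower, and its 2 probes differed at P1. The probe taken was below background on all 6 liver-derived arrays, between -7.74 and -6.05, against -4.04 in MEF and -1.88 in MSC. The difference was -3.87 ± 0.67 (SE; limma adjusted p = 0.0403). The second probe read -2.20 at P1, above its -6.02 in MEF and -4.07 in MSC, so no fold is given. With the mean of both probes the difference was -2.83 with a limma adjusted p of 0.194, and with normexp correction it was 0.07. Leaving out any array other than adult HSC or MEF also ended the call (limma adjusted p from 0.0578 to 0.165).

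The vitamin D receptor Vdr, known as a brake on the fibrogenic response of stellate cells, was at -2.54, -1.84, -4.05, -6.65 and -5.26 from E11.5 to P1 and -8.04 in adult HSC, against -1.81 in MEF and -1.01 in MSC. The E17.5 and adult HSC values were below background, and every liver-derived array was below both others. The difference of -3.32 ± 1.59 (SE) did not pass (limma adjusted p = 0.296). Of 8 vitamin D response genes, 6 were tested and none passed. Cyp24a1, the vitamin D hydroxylase that Vdr induces, was below background on all 8 arrays. Rorb, an orphan receptor known from retina and brain, was below background on the 6 liver-derived arrays and at -5.06 in MEF and -5.57 in MSC.

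Members that had an unadjusted p under 0.05 without passing the adjustment were Hnf4a, Nr2c1, Nr2c2, Nr2f1, Nr2f2, Nr4a1, Nr4a3, Nr5a2, Rxra and Thra on the higher side and Rorb on the lower side. With those that passed, that makes 13 of 44 higher (29.5%, against 10.5% of all genes) and 3 lower (6.82%, against 9.15%). Hnf4a, whose levels are given with the hepatocyte receptors below, differed by 6.16 ± 2.23 (SE; limma adjusted p = 0.198). No fold is given because adult HSC, like MEF and MSC, was below background. Also among the members with an unadjusted p under 0.05 are the COUP-TF orphans, repressors and activators of mesenchymal and vascular development. Nr2f1 was at 4.08, 3.34, 2.98, 3.07 and 1.97 from E11.5 to P1 and 3.26 in adult HSC, against 1.27 in MEF and 1.09 in MSC, with no overlap (1.93 ± 0.49 SE, limma adjusted p = 0.114). Nr2f2 was between 3.03 and 3.97 on the liver-derived arrays, against -0.19 in MEF and 3.04 in MSC. MEF alone was low, and P1 and MSC were level. Without the MSC array its adjusted p was 0.00852. Nr2f6 differed little, between 3.05 and 3.61 on the liver-derived arrays, against 3.01 in MEF and 3.89 in MSC.

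Thra, the thyroid hormone receptor alpha, was at 2.63 to 3.99 on the liver-derived arrays, against 2.53 in MEF and 1.56 in MSC. Of 11 thyroid hormone handling and response genes, 10 were tested and none passed. Nr2c1 and Nr2c2, the testicular orphan receptors, differed by 1.53 and 0.73, and Nr2c1 passed without the MEF array (2.23, limma adjusted p = 0.0232). Esr2, Esrra, Nr5a1 and Rxrb each moved by less than 1.5 on the log2 scale over all 8 arrays. Of 17 coactivators and corepressors of nuclear receptors, 16 were tested and none passed. Their median difference was 0.36, with the coactivator Ncoa3 at 2.24 to 3.62 on the liver-derived arrays, against 1.78 in MEF and 1.31 in MSC.

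**Figure D1:**
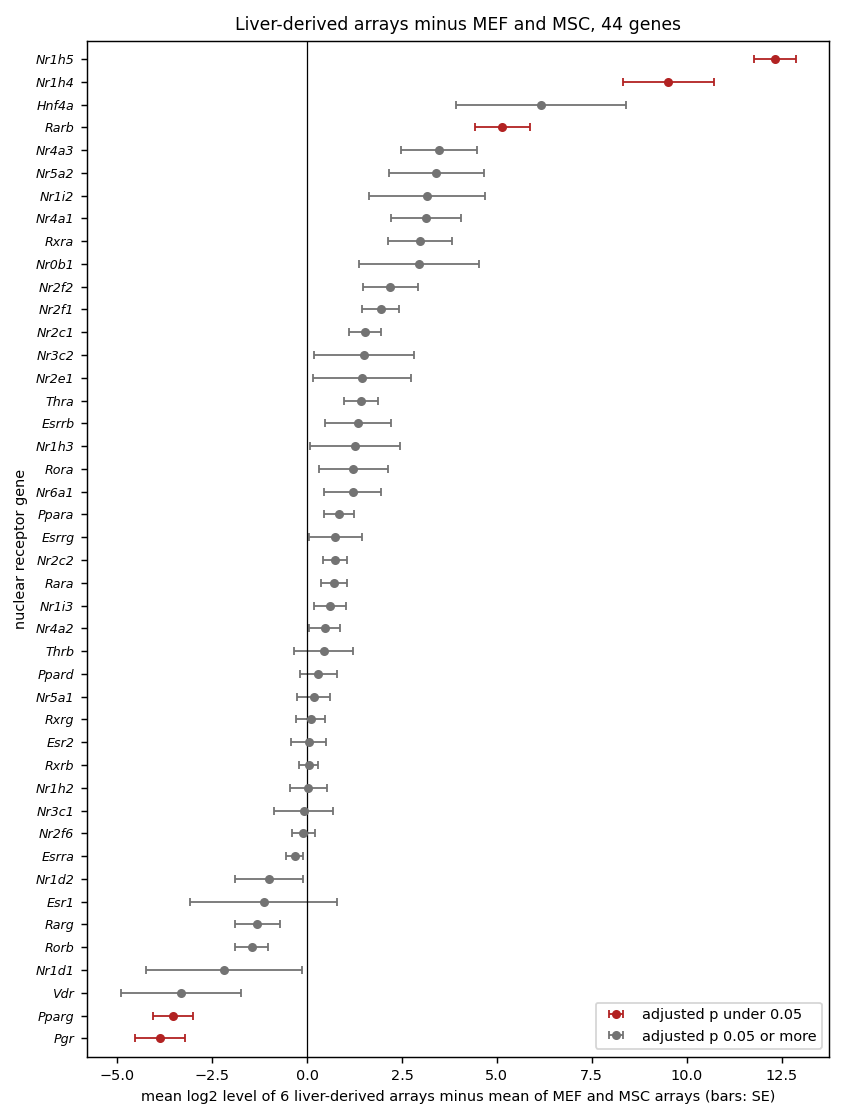
Difference in log2 level between the mean of the 6 liver-derived arrays and the mean of the MEF and MSC arrays for the 44 members tested (points, with SE bars from limma), red where the adjusted p was under 0.05. Nr1h5 (12.33), Nr1h4 (9.52) and Rarb (5.15) are red on the right, and Pparg (-3.54) and Pgr (-3.87) are red on the left.

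The second comparison followed the 5 p75NTR stages as a slope per stage. Only P1 among them was on the second slide, so its step cannot be told apart from slide. No member of 41 and no gene of 15461 passed limma's adjusted p of 0.05 (0%). At an unadjusted p under 0.05, 10 members had positive slopes (24.4%, against 12.5% of all genes) and 4 had negative slopes (9.76%, against 15.5%). The median slope of the members was 0.09 per stage, against -0.03 over all genes. Those with positive slopes were Esr1, Nr1h2, Nr3c1, Nr4a1, Nr4a2, Nr4a3, Rarg, Rora, Thra and Thrb, and those with negative slopes Nr2f1, Nr2f2, Rarb and Vdr. By the probe taken, Esr1, Nr3c1, Nr4a1 and Nr4a2 read higher at each later stage (4 of 41, 9.76%, against 3.42% of all genes). Esr1 was below background on the first 3 stages, and the other probes of Esr1, Nr3c1 and Nr4a2 read lower at 1 of the steps. From E17.5 to P1 the step was small for Nr3c1 (3.36 to 3.39), Nr4a2 (1.16 to 1.22) and Nr4a1 (6.30 to 6.40). No member was lower at each later stage (0%, against 6.61%).

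The NR4A receptors are orphans that stimuli induce within minutes, as they do Fos and Egr1. Nr4a1 was at 3.47, 4.01, 5.48, 6.30 and 6.40 from E11.5 to P1, with 6.79 in adult HSC, against 2.53 in MEF and 2.04 in MSC. Each later stage was higher, adult HSC was the highest array, and all 6 were above MEF and MSC. The slope was 0.81 ± 0.11 per stage (SE; limma adjusted p = 0.066), and among genes above background on all 5 arrays the adjusted p was 0.0388. Nr4a2 ran from 0.34 at E11.5 to 1.22 at P1 in the same order, but adult HSC was at 0.06. Its second probe was level at E17.5 (-0.60) and P1 (-0.62). Nr4a3 was below background at E11.5 and E13.5, between -4.18 and -3.92 at the 3 later stages and at -3.04 in adult HSC, against levels below background in MEF and MSC.

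Immediate early genes outside the family are given beside these receptors. Of 16 such genes, 15 had a probe and 14 were tested. Fosb (8.74), Fos (6.43) and Jun (3.09) were higher and Fosl1 (-4.91) was lower on the liver-derived arrays at a limma adjusted p under 0.05. Fos was at 3.07, 3.51, 4.54, 5.46 and 5.44 from E11.5 to P1 and 5.88 in adult HSC, against -0.96 in MEF and -2.59 in MSC. Of the 14 slopes over the stages, 13 were positive with an unadjusted p under 0.05, and none passed the adjustment. The summed linear level of the 15 genes, in units of the array's 75th percentile, was 126.2, 152.6, 280.5, 502.8 and 474.4 from E11.5 to P1 and 723.5 in adult HSC, against 54.3 in MEF and 55.6 in MSC. Nr4a1 followed the same order apart from E17.5 and P1 and apart from MEF and MSC. Tissue was dissociated with collagenase before sorting, and the part of that step in these levels was not tested.

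Among the steroid receptors, Nr3c1, the glucocorticoid receptor, was at 1.37, 2.11, 2.63, 3.36 and 3.39 from E11.5 to P1, with 4.59 in adult HSC, against 2.69 in MEF and 3.31 in MSC. By this probe Nr3c1 read higher at each later stage, though E17.5 and P1 were near level, and MEF and MSC lay within the range of the stages. The slope was 0.53 ± 0.08 per stage (SE; limma adjusted p = 0.0666), and among genes above background on all 5 arrays the adjusted p was 0.0395. The second Nr3c1 probe sloped by 0.40 and was lower at E13.5 than at E11.5. Esr1, the estrogen receptor alpha, was below background at E11.5, E13.5 and E14.5, then at -3.88 at E17.5, -3.24 at P1 and 0.40 in adult HSC, against -4.18 in MEF and -2.50 in MSC. Its slope was 1.11 ± 0.14 per stage (SE; limma adjusted p = 0.0625), which rests in part on levels below background, and with normexp correction it was -0.14. Adult HSC was the highest array on all 3 Esr1 probes. The difference of the 6 liver-derived arrays together from MEF and MSC was -1.14, 0.89 and -1.30 on the 3 probes. Of 12 glucocorticoid response genes, 6 had a positive slope and 1 a negative one at an unadjusted p under 0.05, and none passed the adjustment. Klf9, a target of glucocorticoid and thyroid hormone receptors, was at -0.46 at E11.5, 2.77 at P1 and 4.05 in adult HSC. Fkbp5, the gene with the negative slope, was at 1.63, 0.48 and 1.07 on the same arrays. Tsc22d3, also on the list, was at 1.97, 2.66 and 0.82.

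**Figure D2:**
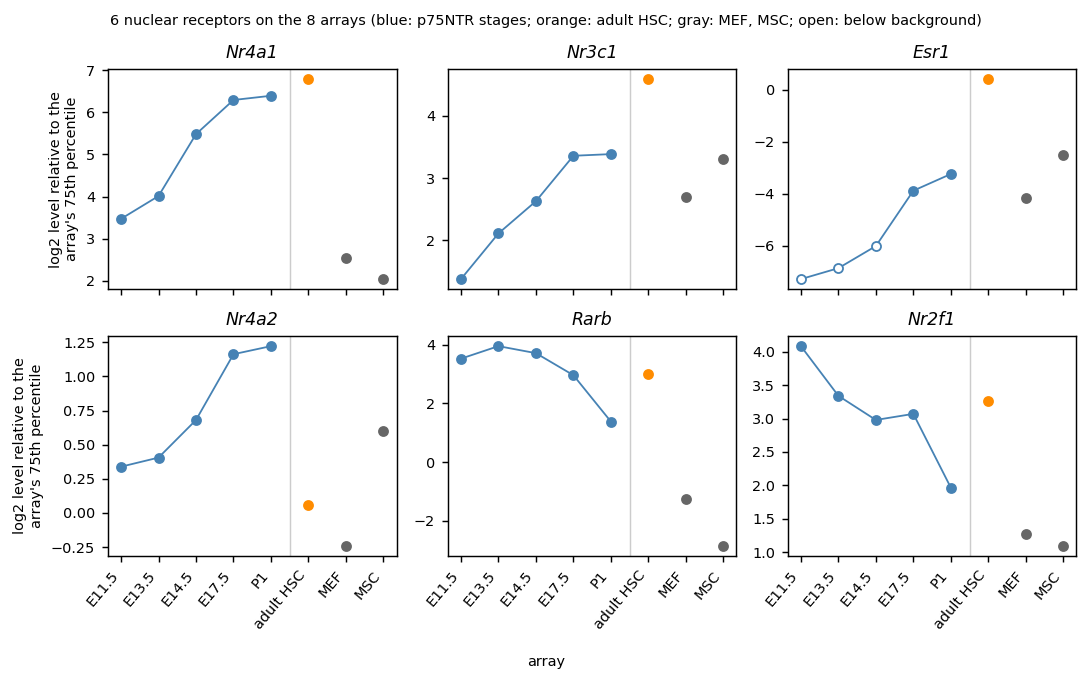
Log2 levels of 6 nuclear receptors on the 5 p75NTR arrays in stage order (blue, joined), adult HSC (orange), MEF and MSC (gray), with open circles below background and an axis of its own for each gene. The probes shown for Nr4a1, Nr3c1 and Nr4a2 read higher at each later stage, Esr1 was above background from E17.5 on, and Rarb (1.38) and Nr2f1 (1.97) had their lowest liver level at P1.

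The clock-linked receptors were described over the stages and in adult HSC. Nr1d1 (REV-ERB-alpha), the repressor that closes a loop of the circadian clock, was at -6.30, -4.83, -6.19, -5.19 and -2.78 from E11.5 to P1, with 1.47 in adult HSC, against -3.34 in MEF and -0.20 in MSC. Only adult HSC was above the 75th percentile of its array, and E11.5 and E14.5 were below background. Its relative Nr1d2 was at 0.02 in adult HSC and -1.34 at P1, against -1.89 in MEF and -0.19 in MSC. Rora, the activator that binds the same sites, had a slope of 0.50 ± 0.14 per stage (SE; limma adjusted p = 0.119) and was at 0.06 in adult HSC, its highest array. Of 15 circadian clock and PAR bZIP genes, 14 were tested over the stages and none passed. The labels give no time of day for collection.

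Several receptors of hepatocytes were highest at E14.5, where hepatocyte transcripts were also highest. They were grouped here for that peak, so its match with hepatocyte transcripts tests nothing. E14.5 was the highest of the 8 arrays for 5 of 44 members (11.4%, against 7.69% of all 16480 genes above background somewhere). Nr1h4, also a receptor of hepatocytes, was at 3.75 at E14.5, 3.87 at E17.5 and 5.57 in adult HSC. Hnf4a, a master regulator of hepatocyte genes, was at -4.31, 1.05, 3.05, -1.46 and -1.78 from E11.5 to P1, and below background in adult HSC, MEF and MSC. Nr1i2 (PXR, the drug-sensing receptor) was above background only at E13.5, at -3.40, and E14.5, at -1.50. Nr5a2, a regulator of bile acid genes, was at -2.68, -2.16, -0.20, -4.00 and -2.82 from E11.5 to P1 and -5.84 in adult HSC, against -6.26 in MEF and -6.43 in MSC. The probe of Nr1i3 (CAR) that was taken was above background only at E14.5, at -4.81. Nr1h3 and Ppara were also highest at E14.5 among the p75NTR arrays, but both were as high in adult HSC, at 0.58 for Nr1h3 and -0.34 for Ppara. Nr0b1, an orphan that lacks the usual DNA-binding domain, peaked earlier, with -3.36, -1.05 and -2.07 at E11.5, E13.5 and E14.5 and levels below background on the other 5 arrays.

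Of 14 hepatocyte and hepatoblast markers, 13 had a probe. Between 11 and 13 of these were above background on each liver-derived array, against 4 in MEF and 5 in MSC. Their summed linear level was 212, 536.6, 1369, 294.3 and 244.8 from E11.5 to P1 and 4.8 in adult HSC, against 124.9 in MEF and 51.4 in MSC. Dlk1, a hepatoblast gene that is also made by other embryonic cells, made up most of the sum at E11.5, E17.5, P1, MEF and MSC. It was at 7.68, 7.39, 7.73, 7.57 and 7.55 from E11.5 to P1 and -5.72 in adult HSC, against 6.95 in MEF and 5.65 in MSC. The sum did not follow Alb, which was at 2.78 at P1 and -2.03 at E11.5 and below background in MEF and MSC. Ttr (transthyretin) was at 5.25 at E14.5 and -3.11 at E11.5. The part of these transcripts in the levels of Hnf4a, Nr1i2, Nr5a2, Nr1i3, Nr1h3 and Ppara was not tested.

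**Figure D3:**
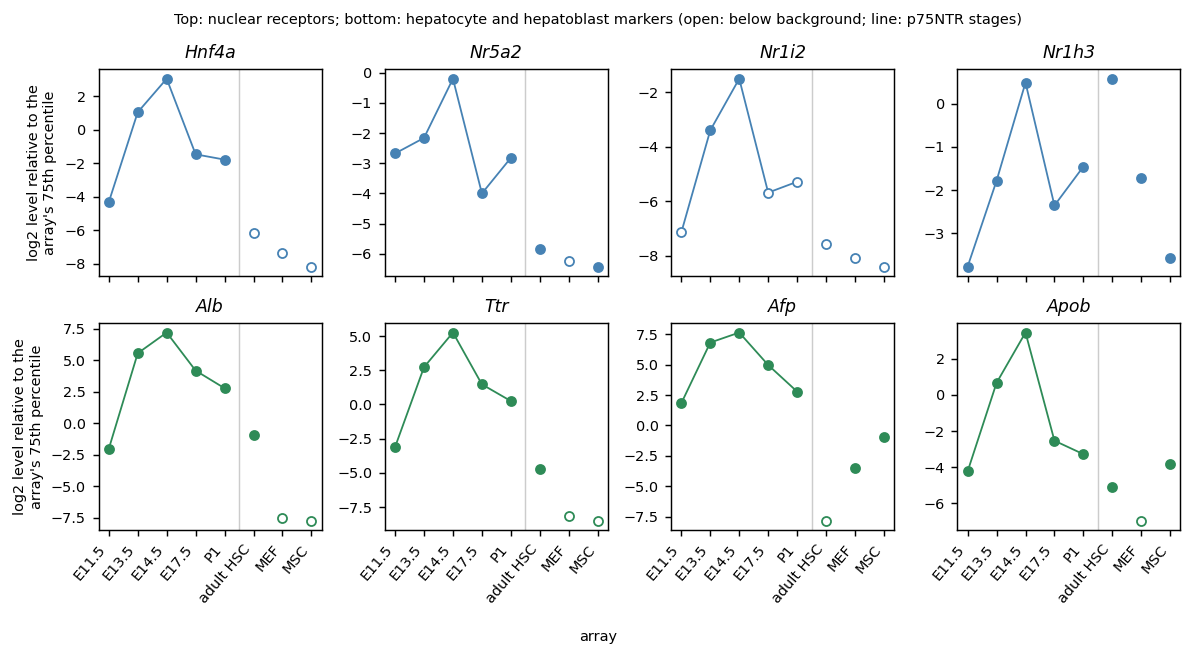
Log2 levels on the 8 arrays of 4 nuclear receptors (top row) and 4 hepatocyte and hepatoblast markers (bottom row), with the p75NTR stages joined, open circles below background and an axis of its own for each gene. All 8 genes were at their highest p75NTR level at E14.5 (Hnf4a 3.05, Alb 7.19), and Nr1h3 was also high in adult HSC (0.58). The receptors were chosen for their peak at E14.5.

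The third comparison set P1 against E11.5, 1 array each, with no test. A member counted as apart at 4-fold or more, with a bound where 1 side was below background. By the brightest probe, 38 members were above background on either array. Of these, 8 were at least 4-fold higher at P1 (21.1%, against 7.42% of 14895 genes) and 5 at least 4-fold lower (13.2%, against 3.28%). Pgr and Esrrg, above background there by their other probe only, were left out. The median difference of the members was 0.37, against -0.08 over all genes. The members higher at P1 were Esr1, Hnf4a, Nr1d1, Nr1h3, Nr1h4, Nr2e1, Nr3c1 and Nr4a1, and those lower were Esrrb, Nr0b1, Nr2f1, Rarb and Vdr. Nr4a1 (7.61-fold), Nr1h4 (6.36-fold), Hnf4a (5.81-fold), Nr1h3 (4.99-fold) and Nr3c1 (4.04-fold) were above background on both arrays. The folds of Nr1d1 (at least 5.97-fold), Nr2e1 (at least 4.98-fold) and Esr1 (at least 4.34-fold) are bounds, since E11.5 was below background. Of 13 hepatocyte markers, 8 were at least 4-fold higher at P1 and none lower (Alb by 4.81 on the log2 scale), and of 10 endothelial markers 1 was higher and 4 were lower. The part of these cells in the receptor differences, those of Hnf4a, Nr1h4 and Nr1h3 included, was not tested.

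Those lower at P1 were measured on both arrays except Nr0b1. Rarb was 4.41-fold lower, Nr2f1 4.34-fold lower, Vdr 6.57-fold lower and Esrrb 4.53-fold lower. Esrrb, an estrogen-related orphan known from stem cells, was at -2.95, -3.21, -6.04, -5.53 and -5.13 from E11.5 to P1 and -5.09 in adult HSC, against -5.55 in MEF and -6.44 in MSC, with E14.5 and MSC below background. Nr0b1 was at least 5.39-fold lower. Nr3c1 lay just past 4-fold, with 1.35 on the log2 scale for its second probe, and Nr1h5, at 3.78-fold lower, lay just short of it. With normexp correction only Nr1h4, Nr4a1 and Nr2f1 were still 4-fold apart, and with the mean of all probes Esr1 (1.05) and Nr3c1 (1.68) were not. Nr2e1 (TLX), an orphan receptor of neural stem cells, was above background at P1 alone, at -3.04. The P1 array also held pancreatic exocrine transcripts: 7 of 8 such markers were above background there, with a summed linear level of 57.5, against 0.54 at E11.5 and at most 3.09 on any other array. The second Pgr probe was likewise high at P1 alone among the liver-derived arrays. The part of other tissue in the P1 levels of Nr2e1 and Pgr was not tested.

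The fourth comparison set adult HSC against P1, and so shares the P1 array with the third. By the brightest probe, 38 members were above background on either array. Of these, 6 were at least 4-fold higher in adult HSC (15.8%, against 4.59% of 14902 genes) and 3 at least 4-fold lower (7.89%, against 12.6%). Pgr, above background at P1 by its other probe only, was left out. The median difference of the members was 0.49, against -0.06 over all genes. Nr1d1 was 19.1-fold higher, Esr1 12.5-fold, Rxra 7.40-fold, Nr1h4 6.23-fold and Nr1h3 4.09-fold. Nr3c2, the mineralocorticoid receptor, was at -2.85 in adult HSC and below background on the other 7 arrays, and was at least 7.65-fold higher than at P1. The second Rxra probe was higher by 1.51 on the log2 scale, which is short of 4-fold. So were the second Nr1h3 probe (1.99) and 1 of the other Esr1 probes (1.12), while the third Esr1 probe was higher by 2.82. Hnf4a was at least 18.0-fold lower in adult HSC, Nr2e1 at least 7.47-fold lower and Nr5a2 8.09-fold lower, but the second Nr5a2 probe was higher by 0.69. With normexp correction Nr1d1, Esr1, Rxra and Nr1h4 were still 4-fold apart and the other 5 were not. Nr1h5, at 3.86-fold higher, lay just short of 4-fold.

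Scaling to each array's median instead of its 75th percentile moved the median of all genes from -0.06 to 0.71 in adult HSC against P1, and 12 members were then higher and 3 lower, against 6 and 3. In P1 against E11.5 it moved the median to -0.26, and 6 members were then higher and 6 lower, against 8 and 5. Adult HSC and P1 cells were sorted on different properties, vitamin A and p75NTR. Hepatic stellate markers were 4-fold higher in adult HSC for 7 of 12 genes, and endothelial markers 4-fold higher for 3 of 10 and lower for 1. Markers were 4-fold lower for 9 of 13 hepatocyte, 5 of 7 mesothelial, 7 of 7 pancreatic exocrine, 6 of 7 neural crest and glial and 4 of 8 erythroid genes. Their part in the receptor levels was not tested.

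**Figure D4:**
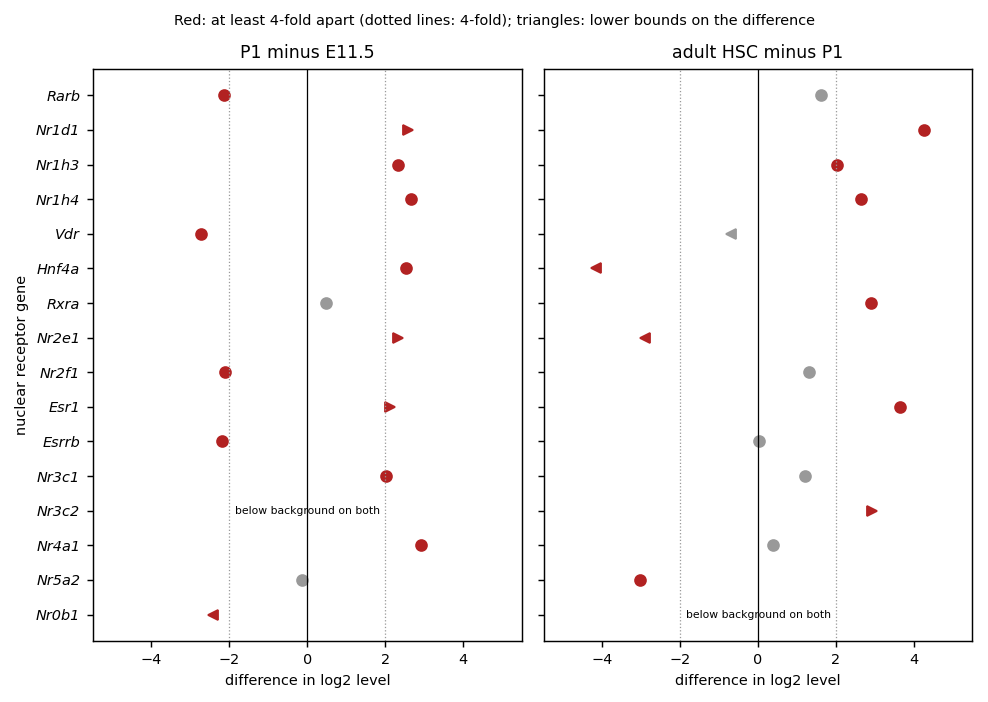
Differences in log2 level for the 16 members at least 4-fold apart in either pair of arrays: P1 minus E11.5 (left) and adult HSC minus P1 (right), red past 4-fold (dotted lines), with triangles for bounds where 1 side was below background. Nr1d1, Nr1h3, Nr1h4 and Esr1 are red to the right in both panels, and Hnf4a and Nr2e1 are red to the right at P1 and to the left in adult HSC. The 2 panels share the P1 array.

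Target and partner lists were counted in the same pairs. At P1 against E11.5, 10 of 14 immediate early genes, 8 of 15 PPAR target genes, 7 of 12 glucocorticoid response genes and 5 of 10 LXR target genes were at least 4-fold higher and none lower, against 7.42% higher among all genes. The LXR targets include the member Nr1h3, and Dusp1 and Pdk4 are each counted in a pair of these lists. Per1 and Klf9, both higher, are in the glucocorticoid list and again in the clock list (Per1) and thyroid hormone list (Klf9). All lists were chosen with earlier results of these data known. Lpl, a lipoprotein lipase gene and PPAR target, was at 3.84 at P1 and -0.42 at E11.5. Of 14 retinoic acid genes 4 were higher and 2 lower, of 9 thyroid hormone genes 3 were higher and 1 lower, and of 6 vitamin D response genes 1 was higher and 1 lower. Among all genes 3.28% were at least 4-fold lower. Of 14 clock genes 2 were higher, of 16 coactivators and corepressors 1 was higher (Ppargc1a) and of 6 bile acid genes none passed 4-fold.

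In adult HSC against P1, 5 of 12 glucocorticoid response genes and 4 of 10 LXR target genes, Nr1h3 among them, were at least 4-fold higher and none lower, against 4.59% higher among all genes. Abcg1, a cholesterol exporter and LXR target, was at 3.21 in adult HSC and -0.54 at P1. Of 15 PPAR target genes 1 was higher and 5 lower, and of 10 thyroid hormone genes none was higher and 4 were lower. Among all genes 12.6% were at least 4-fold lower. Ttr, lower here and higher at P1 against E11.5, is in both the thyroid hormone list and the hepatocyte markers. Of 11 retinoic acid genes 2 were higher and 1 lower, of 13 clock genes 2 were higher and 1 lower, and of 14 immediate early genes 2 were higher. Dusp1 is counted among both the glucocorticoid and the immediate early genes. Of 7 bile acid genes 1 was higher and 1 lower, of 5 vitamin D genes 1 was higher and 1 lower, and 1 of 16 coactivators and corepressors was lower.

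The remaining members were near background or differed little. Esrrg and Nr6a1, orphans of energy metabolism and of early embryos, were above background on 4 or fewer arrays each. Esrra, the estrogen-related receptor of mitochondrial genes, lay between 1.20 and 1.57 on the liver-derived arrays, against 1.78 in MEF and 1.76 in MSC. Thrb had a slope of 0.53 ± 0.19 per stage (SE; limma adjusted p = 0.157) and was above background on all arrays but E11.5. Its slope was -0.23 with normexp correction. Nr5a1 (SF-1), known from steroid-making tissue, lay between -4.11 and -2.79 on all 8 arrays, with overlap. Esr2 lay between 0.01 and 1.46.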

How the data were processed

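The authors deposited 1 scanner file per array with intensity values that Agilent Feature Extraction 11.5.1.1 had background-subtracted, per the file headers. They also deposited a table of log2 values, which are these signals scaled to each array's 75th percentile, per the labels. It differed from the values used here by array medians from -0.154 to -0.102. After that offset, 100% of probes lay within 0.02 on 6 arrays, 96.7% did at E14.5 and 93.2% in MSC. Its column medians ran from -4.48 to -3.55, and it was used as an alternative only.

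Here each level is log2 of the ratio of the processed signal to its 75th percentile on that array. The files used here hold no gene name column, so probes were named through their RefSeq transcript accession, which named 26581 of 39429 probes (67.4%). Repeat spots were averaged, spots marked as outliers were dropped, and each gene was read by its brightest probe, by mean over the 8 arrays. A probe was above background where at least 1 in 2 of its spots was well above background, and a gene where any of its probes was. Bounds use the lowest level well above background on that array. A fit with limma 3.58.1 (R 4.3.3) took in the genes whose brightest probe was above background on 1 or more of its arrays. The p-values were adjusted over all of these genes by Benjamini and Hochberg's method. Pairs of single arrays took in genes by the same rule and have no test. Simulated differences of 4 and 8 between liver-derived and other arrays were recovered for 72% and 97% of genes (9 false calls), and simulated slopes of 1 and 2 for 76% and 91% (6 false calls). The simulations drew independent noise from limma's own fitted variances, with no slide effect and no level marked as below background. Their rates describe the model and cannot show how many true differences were found on these arrays.

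Normexp correction (offset 50) used the median spot signal and median background, since the mean spot signal is not in the files used here. All 47 members are accounted for. Those past a fit or at least 4-fold apart in a pair are given array by array or by their fold, with up to 4 genes of a list. Genes of lists given for their role (among them Cyp7a1, Cyp26a1, Cyp26b1, Csf1r, Cyp24a1, Dlk1, Hba-a1, Ptprc and Abcb11) were chosen after their values were seen. The members and lists were chosen with earlier results of these data known.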

Additional observations from a re-analysis of the deposited data

How the results depend on the processing

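With normexp background correction 47 of all genes passed between liver-derived and other arrays in place of 259, and 2 members (Nr1h5 and Rarb) in place of 5. P1 against E11.5 then had 589 genes and 3 members apart in place of 1593 and 13, and adult HSC against P1 had 1035 and 4 in place of 2560 and 9. The same correction turned the liver difference of Rorb to 0.72 and of Pgr to 0.068, and the slopes of Thrb to -0.23, Esr1 to -0.14 and Nr4a3 to -0.23. Among genes above background on every array compared, 157 genes and 2 members passed in the liver comparison, 645 genes and 2 members (Nr3c1 and Nr4a1) in the slope, and 1492 genes were apart in adult HSC against P1. With the slide as a block 74 genes and 2 members (Nr1h4 and Nr1h5) passed, and within the second slide alone 0 genes did, though 1457 had an unadjusted limma p under 0.05. With the p75NTR arrays only on the liver side 522 genes passed. Leaving out 1 array at a time gave 82 to 1273 genes and 2 to 6 members, with 2 members without E13.5, E14.5, E17.5 or MSC. The number of genes was 92 without E13.5, 87 without E14.5, 82 without E17.5, 166 without P1, 522 without adult HSC and 1273 without MEF. In the slope, quantile normalization called 103 genes, and a variance trend with a robust prior called 1131 genes and 5 members (Thra, Nr2f1, Esr1, Nr3c1 and Nr4a1), against 0 in the fit reported. Median normalization put 15 members apart between adult HSC and P1, and moved the median liver difference of all genes to -0.36 (normexp to 0.34). The cause of these changes was not tested. Limma adjusted p over the alternatives ran from 8.01e-06 to 0.361 for Nr1h5, 0.00559 to 0.405 for Nr1h4, 0.00936 to 0.535 for Rarb, 0.00837 to 0.535 for Pparg and 0.0099 to 0.959 for Pgr, each highest within slide 2 apart from Pgr. Measured differences in place of bounds, no filter, a floor and the authors' table left the counts of members within 1.5 times. Naming probes by accession alone was not run apart, since no other names are in the files used here. No paired analysis was possible because each group has 1 array and the labels share no replicate numbers.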
